A study of Mus musculus with 8 samples.

Results

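IL-2, IL-7 and IL-15 were followed in lysates of mouse tumours as 3 of the 111 secreted or shed proteins on an antibody array. They were found by the Entrez identifiers printed with the spots (16183 for Il2, 16196 for Il7 and 16168 for Il15). All 3 were present on all 8 membranes. The tumours were grown from TC-1, a C57BL lung epithelial line expressing HPV16 E6 and E7, or from TC-1/IR, its radiation-resistant counterpart. The hosts were female C57BL mice, 10 weeks old, injected subcutaneously in the right thigh with 100000 cells of TC-1 or with 300000 of TC-1/IR, and treatment began near a tumour volume of 100 mm3. Each line was given buffer, radiotherapy (RT), the drug rhIL-7-hyFc, or RT with the drug. RT was whole-body gamma irradiation with 2 Gy a day for 4 days, and the drug was 50 µg under the skin on days 0 and 7. The drug is human IL-7 joined to a hybrid Fc to prolong its life in the circulation.

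The 2 lines and 4 treatments formed 8 groups with 1 membrane each. The titles speak of pooled samples and the design text of tumours from individual mice, so it is unclear how many animals stand behind a membrane. The lines also differed in the number of cells injected, which cannot be told apart from the line itself.

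IL-2, IL-7 and IL-15 are short-range growth factors of lymphocytes whose receptors all contain the common gamma chain and signal through STAT5. IL-7 is made mainly by stromal and epithelial cells and keeps naive and memory T cells alive. IL-15 is shown on the surface of myeloid and epithelial cells by its own receptor chain and sustains NK cells and memory CD8 T cells. IL-2 comes mainly from activated T cells and drives their expansion and the upkeep of regulatory T cells. Human IL-7 acts on mouse cells. The array is built for the mouse proteins. No source used here says whether its IL-7 antibody also binds human IL-7.

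A reading is the mean intensity of 2 spots on the linear scale of the deposited values. Readings up to a floor of 2.49, which is 1% of the highest analyte of the series, were treated as below measurement. The floor is a chosen value, since no blank spots were among those read here. Readings of different cytokines depend on their antibodies and are not compared with each other as amounts. The summed signal was 1173 to 1449 on the TC-1 membranes. It was 765 and 739 on the TC-1/IR membranes for buffer and for RT with the drug, and 1473 and 1495 for RT and for the drug. Results were therefore also computed after scaling to this sum and after centring. Centring subtracted each membrane's median log2 reading over the 28 analytes above the floor on every membrane. Analytes under the floor on any membrane did not enter that median, so centred differences are relative to those 28. Median spot variation per membrane was 5.02% to 11.1%. Precision is limited by the number of arrays. In tumour lysate, fewer cells making a cytokine and less cytokine per cell cannot be told apart.

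In TC-1 tumours IL-7 gave a reading of 13.15 with buffer, 13.9 after RT, 12.5 with the drug and 8.53 with both. On the TC-1/IR membranes it was 0.595 with buffer, 3.795 after RT, 4.69 with the drug and 1.905 with both. All TC-1 readings lay above all TC-1/IR readings, and the TC-1/IR readings for buffer and for both treatments were under the floor. In order, the 3 highest readings were TC-1 RT, buffer and drug, whose spots overlapped from one to the next. Below them came TC-1 with both treatments, TC-1/IR with the drug and TC-1/IR after RT, each with spots separate from its neighbours. The other TC-1/IR readings, under the floor, have no order.

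IL-15, by contrast, was above the floor everywhere. Its reading in TC-1 was 11.4 with buffer, 11.9 after RT, 16.5 with the drug and 12.3 with both. Among the TC-1/IR membranes the buffer reading was 7.93, followed by 10.4 after RT, 5.80 with the drug and 6.95 with both. The TC-1/IR spots were far apart, with variations of 13.1% to 28.6% against 2.92% to 5.66% on the TC-1 membranes. The highest reading, TC-1 with the drug, was separated from the next by its spots, while each of the others overlapped its neighbour.

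IL-2 was below the floor on all 8 membranes. Its highest reading was 0.605, on the TC-1 membrane of the drug, and the others in TC-1 were 0.0505 with buffer, 0.211 after RT and 0.415 with both. In TC-1/IR the readings ran from 0.001 to 0.0255. Spots written as 0.001 or 0.0011 stand for no signal, and IL-2 had 2 of them among its 8 TC-1 spots and 7 among its 8 TC-1/IR spots. No other analyte had as many in all, the next being MMP-9 with 1 and 6. Over all analytes there were 5 such spots on the TC-1 membranes, in 4 analytes. On the TC-1/IR membranes there were 98, in 31 analytes, so the imbalance between the lines was not particular to IL-2. Readings below the floor have no order here, so IL-2 entered no test and no fold change is given for it.

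**Figure D1:**
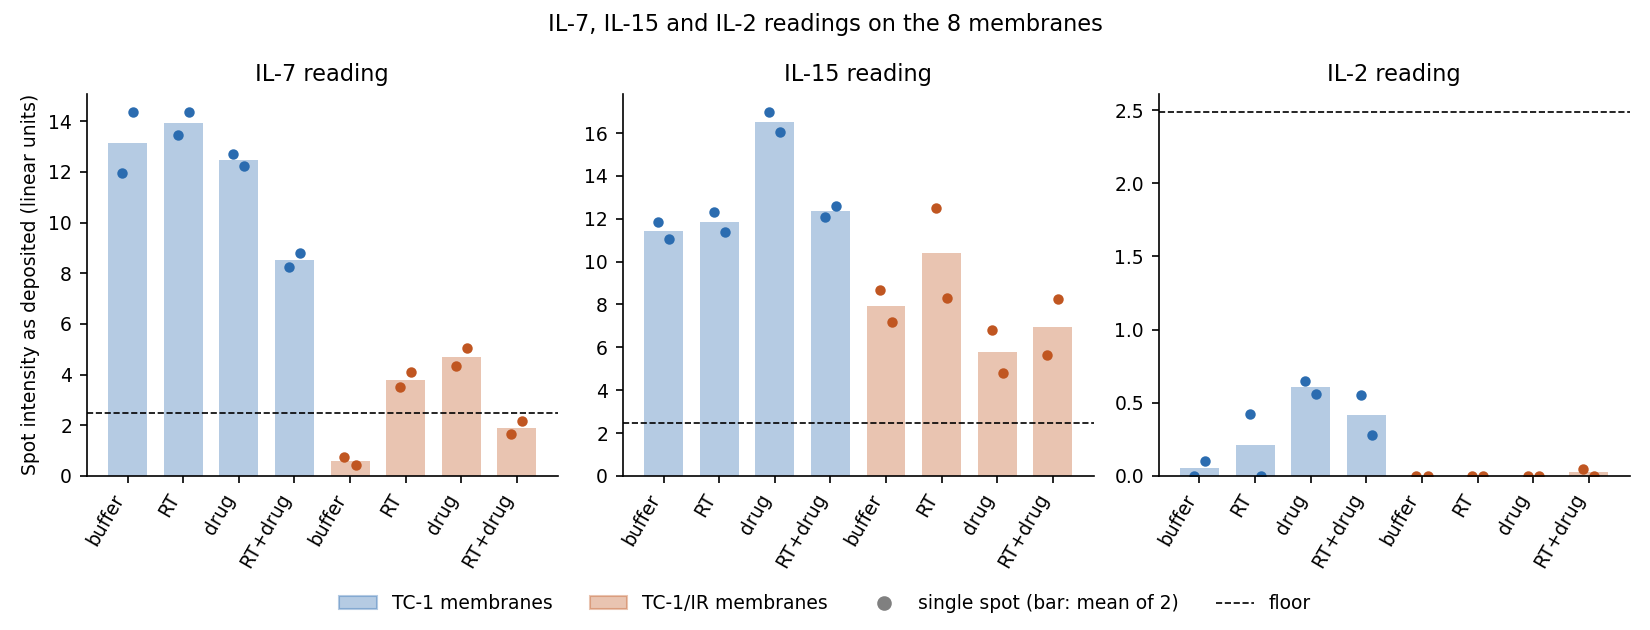
Intensity of the IL-7, IL-15 and IL-2 spots (linear units as deposited, each panel with its own axis) on the 4 TC-1 and 4 TC-1/IR membranes. Points are single spots, bars the mean of 2 spots, the dashed line the floor of 2.49. IL-7 is between 8.53 and 13.9 in TC-1 and at most 4.69 in TC-1/IR, IL-15 is above the floor throughout, and IL-2 is below it throughout.

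The first comparison was between the lines over the 4 treatments. The mean IL-7 reading was 12.02 ± 2.40 for the TC-1 tumours and 2.75 ± 1.85 for the TC-1/IR tumours (SD, n = 4 membranes per line). On log2 values it fell by 1.87 (SE 0.30, 95% interval -2.56 to -1.17, limma adjusted p = 0.0047). It was lower in 4 of 4 matched pairs, and only 2 of the 75 analytes tested had a more negative difference. That estimate sets 2 of the TC-1/IR readings to the floor, so it depends on where the floor lies. Only analytes above the floor on 4 or more of the 8 membranes were tested. IL-7 was above it on 4 TC-1 and 2 TC-1/IR membranes, so it needed TC-1 readings to enter the test. A lower value in TC-1/IR was thus favoured by that choice. Without this filter the difference was also called (limma adjusted p = 0.0225, 111 analytes). Limma called 40.0% of the 75 analytes lower for line and 1.33% higher, with a median difference of -0.58 over all of them. These were 30 lower and 1 higher, against 22 and 5 of 72 after centring. Lower readings in TC-1/IR were thus common on this array, and the call alone does not set IL-7 apart.

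The difference in IL-7 persisted under both scalings. After centring it was -1.63 (SE 0.25, limma adjusted p = 0.00091) against a median of -0.32 for all 72 analytes then tested. After scaling to the membrane sum it was -1.86 (SE 0.22, limma adjusted p = 0.0010) against a median of -0.47. As a share of the summed signal, IL-7 was 0.727% to 1.11% in TC-1. The TC-1/IR share was 0.258% after RT and 0.314% with the drug, and at most 0.325% with buffer and 0.337% with both treatments, taking the floor for the last 2. The lines did not overlap.

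Within single treatments, with no replicate membranes and hence no p, an analyte was called when it differed by at least 1.5-fold with separate spots and 1 membrane or more above the floor. IL-7 was called lower in TC-1/IR at every treatment. It was at least 5.28-fold lower with buffer, where 51.4% of 72 analytes were called lower and 4.17% higher. It was 3.67-fold lower after RT (log2 -1.87, SE of the spots 0.12), where 36.7% of 90 were lower and 13.3% higher. With the drug it was 2.66-fold lower (log2 -1.41, SE of the spots 0.12, background 57.0% of 93 lower and 6.45% higher). With both treatments it was at least 3.43-fold lower (background 56.4% of 78 lower and 2.56% higher). These 4 calls also stood after centring, after scaling to the sum and at 2-fold.

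The mean IL-15 reading was 13.0 ± 2.35 for the TC-1 tumours and 7.77 ± 1.95 for the TC-1/IR tumours (SD, n = 4 membranes per line). Its difference was -0.77 (SE 0.26, 95% interval -1.37 to -0.16, limma adjusted p = 0.0486), and it was lower in 4 of 4 pairs. It passed the test narrowly and close to the median of all analytes, with 31 of 75 more negative. After centring it was -0.31 (SE 0.27, limma adjusted p = 0.368), and after scaling to the sum -0.51 (SE 0.32, limma adjusted p = 0.228). Leaving out 1 membrane ended the call for 7 of the 8 membranes, with limma adjusted p from 0.0662 to 0.140; without TC-1/IR RT it was 0.0188. The pairs were uneven. IL-15 was 2.85-fold lower in TC-1/IR with the drug and 1.78-fold lower with both treatments. With buffer it was 1.44-fold lower and after RT 1.14-fold lower with overlapping spots, neither of them called. The buffer pair turned after scaling, IL-15 being 1.18-fold higher in TC-1/IR after centring and 1.09-fold higher scaled to the sum. Only the pair with the drug alone stayed called after either scaling.

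As a share of the summed signal, IL-15 was 0.948% to 1.14% on the TC-1 membranes. The TC-1/IR share was 1.04% with buffer and 0.940% with both treatments, within or just under the TC-1 range. After RT it was 0.706% and with the drug 0.388%. The IL-7 reading divided by the IL-15 reading of the same membrane, which cancels any scaling of a whole membrane, was 1.15 with buffer and 1.17 after RT in TC-1. The TC-1/IR ratio after RT was 0.365. With IL-7 under the floor, it was at most 0.314 with buffer and at most 0.358 with both treatments, against 0.691 for both treatments in TC-1. With the drug alone the ratios came close, at 0.755 in TC-1 against 0.809 in TC-1/IR.

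IL-4, the other common gamma chain cytokine on the array, promotes type 2 helper T cells and antibody class switching. It read 5.08 to 7.21 in TC-1 against 0.12 to 1.465 in TC-1/IR, where all 4 readings were under the floor (log2 difference -1.24, SE 0.20, limma adjusted p = 0.0047). Of the 4 common gamma chain cytokines on the array 3 could be tested, and all 3 were called lower in TC-1/IR, where 40.0% of all 75 analytes were. Their median of -1.24, against -0.58 for all, is the IL-4 value itself. IL-4 was tested only because it was above the floor in TC-1. Its difference, and with it the median, follows in part from that choice. IL-9 and IL-21 were not among the analytes.

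Other cytokines and chemokines of T and NK cells were read beside them, and their counts stand against the same 40.0% called lower and median of -0.58. Of 11 products of these cells 6 were tested and 4 were lower in TC-1/IR (IFN-γ, IL-4, IL-13 and TNF-α), with a median of -0.88. IL-10, which restrains T cell responses, was 5.51 to 9.06 in TC-1 against 8.42 to 12.8 in TC-1/IR and did not pass the test. Of 9 chemokines that attract T and NK cells 6 were tested and 2 were lower (CX3CL1 and CXCL9), with a median of -0.53. Of 9 cytokines of antigen-presenting and stromal cells 7 were tested and 4 were lower (IL-1α, IL-27 p28, IL-28A/B and IL-33), with a median of -0.90. Of the called members, IL-4, IFN-γ and IL-27 p28 were above the floor on 0 TC-1/IR membranes and entered the test only through TC-1. A lower value was thus built into their choice. CX3CL1, CXCL9 and IL-28A/B were above the floor on 1 TC-1/IR membrane each, and IL-13, TNF-α and IL-1α on 2. They too needed TC-1 readings to enter the test. The 40.0% over all analytes includes analytes of this kind. None of the 4 lists had a member called higher for line. For RT the chemokine CXCL10 was their 1 call, higher, and for the drug 0 of their members were called.

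Markers of lymphocytes were weak in both lines. CD160, a receptor of NK and CD8 T cells, was above the floor on 3 TC-1 membranes, at most 3.76, and on 0 TC-1/IR membranes, at most 0.85. DPPIV, also called CD26 and carried by activated T cells among others, was above the floor on 2 membranes of each line. The sum of both markers was 3.43 to 6.68 in TC-1 against 1.93 to 7.22 in TC-1/IR. These sums include readings under the floor. Both markers were under it with buffer in TC-1, and with the drug and with both treatments in TC-1/IR. Of the 8 TC-1/IR spots of CD160, 1 showed no signal. CD14 of monocytes read 94.7 to 132 in TC-1 against 38.7 to 179 in TC-1/IR. The plasma proteins fetuin A, pentraxin 2 and RBP4 together read 158 to 228 and 212 to 378. They did not move together. Pentraxin 2 read 86.5 to 116 in TC-1 and 165 to 249 in TC-1/IR. It was the 1 analyte called higher for line (log2 difference 0.83, SE 0.22, limma adjusted p = 0.0205). The differences of fetuin A (-0.25) and RBP4 (-0.43) were negative and not called. The summed level of 5 endothelial proteins was 7.74 to 12.4 in TC-1 and 3.06 to 6.19 on the TC-1/IR membranes. These sums did not overlap, but they add readings under the floor, which have no order. E-selectin was above the floor on 3 and 1 membranes, VCAM-1 on 3 and 0, and endoglin, ICAM-1 and P-selectin on none. The 1 tested, E-selectin, read 1.955 to 3.515 in TC-1 and 1.975 to 4.295 in TC-1/IR and was not called. VCAM-1 overlapped as well, at 1.7 to 3.755 in TC-1 and 0.595 to 2.455 in TC-1/IR. The summed level of 3 neutrophil proteins was 10.9 to 26.9 in TC-1 and 4.26 to 10.3 on the TC-1/IR membranes other than that of the drug. There it was 109, of which myeloperoxidase made up 102 and lipocalin-2 6.59, while MMP-9 was under the floor on all 8. The part of these cells, or of plasma, in the cytokine readings was not tested.

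The second comparison was between membranes with and without rhIL-7-hyFc, and the IL-7 reading was followed in each line. In TC-1 the reading with the drug was below that without it in both pairs, 12.5 against 13.15 without RT and 8.53 against 13.9 with RT. The spots of the first pair overlapped and those of the second did not. The second difference was 1.63-fold (log2 -0.71, SE of the spots 0.07), called lower where 10.1% of 89 analytes were and 4.49% were called higher; it was called 1.53-fold lower after scaling to the sum, while centring gave 1.31-fold and ended the call. In the first pair IL-7 was not called, and 1.10% of 91 analytes were lower and 31.9% higher.

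In TC-1/IR the pairs went opposite ways. Without RT the IL-7 reading was 4.69 with the drug and 0.595 with buffer, at least 1.88-fold higher, where 49.1% of 53 analytes were called higher and 5.66% lower. With RT it was 1.905 with the drug and 3.795 without, at least 1.52-fold lower, where 47.0% of 66 were called lower and 4.55% higher. The summed signal of the membranes moved in the same directions, from 765 to 1495 and from 1473 to 739. Scaled to that sum, the first pair stayed at least 1.504-fold higher and the second was not called. Each pair holds 1 IL-7 reading under the floor, so their sizes are bounds.

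No drug effect on the IL-7 reading passed the test. Over both lines the difference was -0.12 (SE 0.30, 95% interval -0.81 to 0.57, limma adjusted p = 0.974). The mean was 7.86 ± 6.68 without and 6.899 ± 4.601 with the drug (SD, n = 4 membranes each, both lines together). Within TC-1 it was -0.39 (SE 0.43, 95% interval -1.42 to 0.64, limma adjusted p = 0.904), with 3 of the 75 analytes more negative. Within TC-1/IR it was 0.15 (SE 0.43, 95% interval -0.88 to 1.19, limma adjusted p = 1). The difference between these effects was 0.54 (SE 0.61, limma adjusted p = 0.957), so a different response of the lines was not shown. The intervals within each line include differences of more than 1.5-fold in either direction, and the one over both lines includes them downwards. For the drug limma called 0.00% of 75 analytes in either direction, and 0 had an unadjusted p under 0.05.

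The IL-15 reading with the drug was higher in both TC-1 pairs, 16.5 against 11.4 without RT and 12.3 against 11.9 with RT. The first of these was 1.44-fold with separate spots (log2 0.53, SE of the spots 0.06), just short of the fold required. In that pair 31.9% of 91 analytes were called higher and 1.10% lower. The median log2 difference of analytes above the floor was 0.42. After centring IL-15 was 1.31-fold higher there, and 1.20-fold after scaling to the sum. In TC-1/IR it was lower in both pairs, 5.80 against 7.93 and 6.95 against 10.4. The spots were separate in both, but the folds of 1.37 and 1.495 fell short and neither was called as deposited. Without RT 5.66% of 53 analytes were called lower and 49.1% higher. With RT 47.0% of 66 were called lower and 4.55% higher. The test of the difference between the lines gave -0.81 (SE 0.47, 95% interval -1.93 to 0.32, limma adjusted p = 0.860). After centring or scaling to the sum the TC-1/IR pair with RT turned, IL-15 being 1.55-fold or 1.33-fold higher with both treatments than after RT alone. It was called after centring only. The TC-1/IR pair without RT became larger, 1.93-fold or 2.67-fold lower with the drug, and was called under both scalings. The shares of all analytes called after scaling are not given here.

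Within TC-1, IL-7 and IL-15 thus stood on opposite sides. As shares of the summed signal, IL-7 was 1.09% and 1.11% without the drug and 0.860% and 0.727% with it, and IL-15 was 0.951% and 0.948% without and 1.14% and 1.05% with it. The ratio of their readings was 1.15 and 1.17 without the drug and 0.755 and 0.691 with it, so the membranes with and without the drug did not overlap. With 2 membranes a side this is a description.

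**Figure D2:**
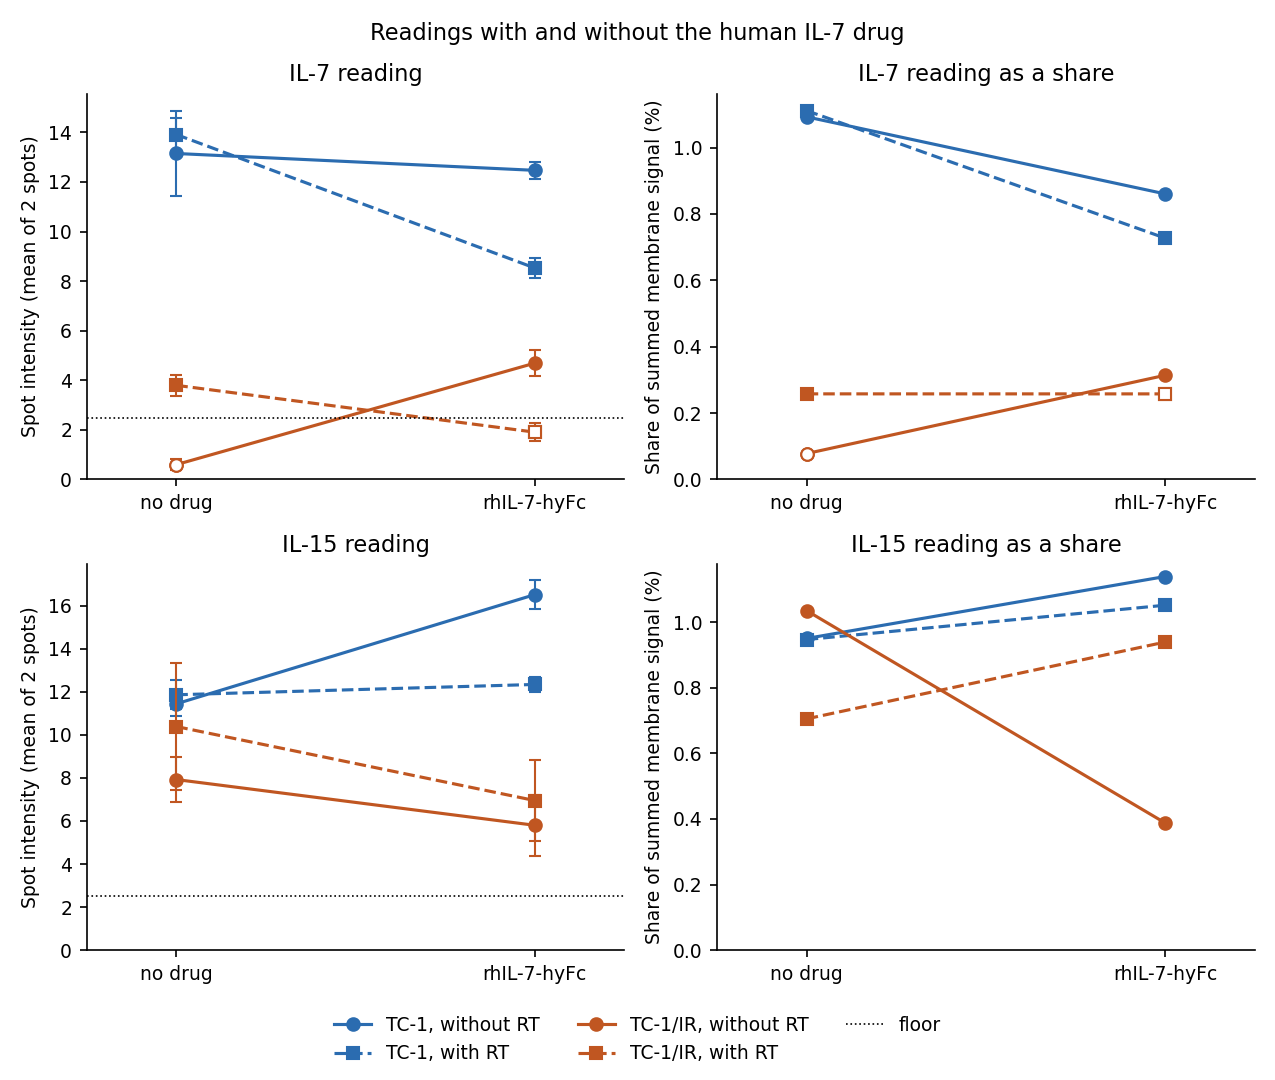
Readings of IL-7 and IL-15 without and with rhIL-7-hyFc, as intensity (left, bars are the SD of 2 spots, dotted line the floor of 2.49) and as a share of the summed membrane signal in percent (right). Each line joins 1 matched pair of membranes. IL-7 is lower with the drug in both TC-1 pairs, and in TC-1/IR it goes from 0.595 to 4.69 without RT and from 3.795 to 1.905 with RT. Open symbols are readings under the floor.

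RT was compared over 4 membranes with and 4 without it. For IL-7 the difference was -0.19 (SE 0.30, 95% interval -0.89 to 0.50) and for IL-15 0.07 (SE 0.26, 95% interval -0.54 to 0.68), with a limma adjusted p of 0.969 for each. In limma 1.33% of 75 analytes were called higher for RT and 0.00% lower. In TC-1 no member was called for RT. Without the drug the spots overlapped for both (1.06-fold higher for IL-7 and 1.04-fold for IL-15, background 19.8% of 86 higher and 3.49% lower). With the drug, readings after RT were 1.46-fold lower for IL-7 and 1.34-fold lower for IL-15 with separate spots (background 22.0% of 91 lower and 2.20% higher). In TC-1/IR the IL-7 reading after RT was at least 1.52-fold above buffer, where 46.3% of 67 analytes were called higher and 2.99% lower. With both treatments it was at least 1.88-fold below the drug alone, where 57.4% of 54 were called lower and 7.41% higher. Neither IL-7 call stood after centring or scaling to the sum. IL-15 with both treatments in TC-1/IR was 1.20-fold above the drug alone with overlapping spots, but was called 2.18-fold higher after centring and 2.42-fold after scaling to the sum. After RT alone it was 1.31-fold above buffer with overlapping spots, and 1.37-fold or 1.47-fold below it after those scalings, with no call.

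The readings after both treatments were set against the sum of the separate effects. For IL-7 the RT by drug term was -1.08 (SE 0.45, 95% interval -2.14 to -0.01, unadjusted p = 0.0487), with a limma adjusted p of 0.261. For IL-15 it was -0.30 (SE 0.52, limma adjusted p = 0.678). The median term over all 75 analytes was -0.64, and 72 of them were negative, so readings of whole membranes were lower after both treatments than the sum. After centring the median was -0.02, and the IL-7 term was -0.42 (SE 0.57, limma adjusted p = 0.983). In TC-1 the IL-7 reading with both treatments was 1.54-fold below buffer, where 13.3% of 83 analytes were called lower and 16.9% higher. That call ended after centring but not after scaling to the sum. In TC-1/IR both IL-7 readings of this pair were under the floor, and IL-15 was 1.14-fold lower with overlapping spots, where 18.2% of 44 analytes were called lower and 15.9% higher.

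**Figure D3:**
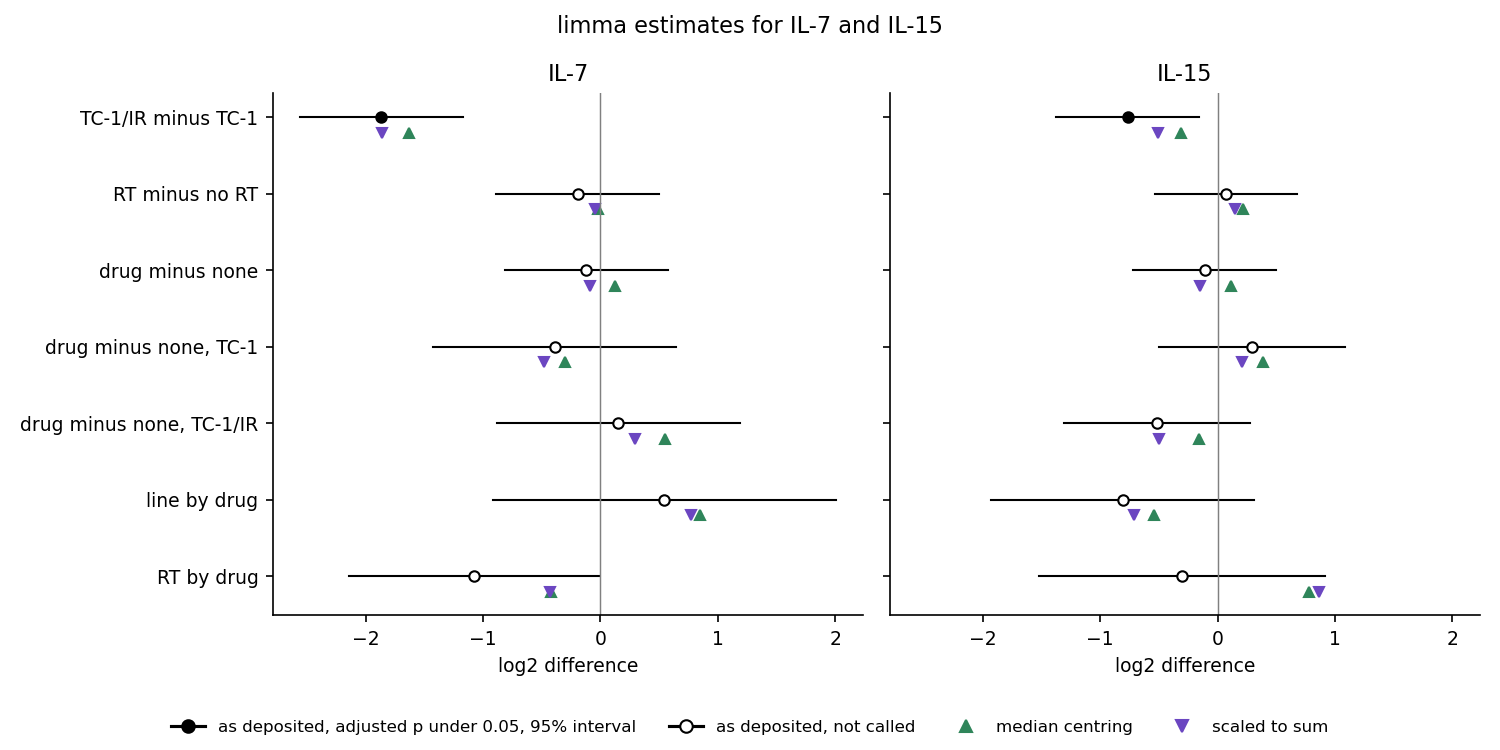
Limma estimates (log2 difference, x axis) for IL-7 and IL-15 in each contrast, with 95% intervals for the values as deposited and the estimates after the 2 scalings as triangles. Filled circles have an adjusted p under 0.05, namely the line differences of -1.87 for IL-7 and -0.77 for IL-15. The IL-15 line difference moves to -0.31 after centring.

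The analytes whose profile over the 8 membranes was most like that of IL-7 were named by Pearson's r, as a description. It was computed on log2 readings set to the floor where below it. They were IGFBP-2, a binding protein of insulin-like growth factors (r = 0.99), TIM-1, a receptor shed by injured epithelium (0.97), and LIF, a cytokine of the IL-6 family (0.96). Gas 6, a ligand of the TAM receptors (0.96), and LDL R, the receptor for low-density lipoprotein (0.95), followed. The median r over the other 74 analytes was 0.75, and over the 71 tested after centring it was 0.44. IGFBP-2, TIM-1 and Gas 6 were among the 5 most like IL-7 after centring and after scaling to the sum as well. IGFBP-2 read 4.62 to 8.18 in TC-1 against 0.39 to 3.22 in TC-1/IR, and like IL-7 was below the floor there with buffer and with both treatments. TIM-1 was under the floor on the same membranes, and Gas 6 on all TC-1/IR membranes but that of RT. Their r with IL-7 thus rests in part on shared floor values.

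IL-15 was most like pentraxin 3, a soluble pattern receptor made at sites of inflammation (r = 0.94), M-CSF, the growth factor of macrophages (0.92), and IL-13, a type 2 cytokine (0.91). IL-28A/B, interferons of epithelia, and CCL22, a chemokine for regulatory T cells, had r of 0.90. The median over the others was 0.66. Of the TC-1/IR membranes, IL-28A/B and CCL22 were above the floor on 1 each, IL-13 on 2 and pentraxin 3 on 3. Their r with IL-15 thus rests in part on values set to the floor. M-CSF and IL-13 remained among the 5 after both scalings. M-CSF read 8.96 to 12.7 in TC-1, highest with the drug as IL-15 was, and 4.57 to 6.75 in TC-1/IR. Pentraxin 3, IL-13 and IL-28A/B were also highest on the TC-1 membrane of the drug. IL-7 and IL-15 had an r of 0.75 with each other as deposited, 0.21 after centring and 0.38 after scaling to the sum.

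**Figure D4:**
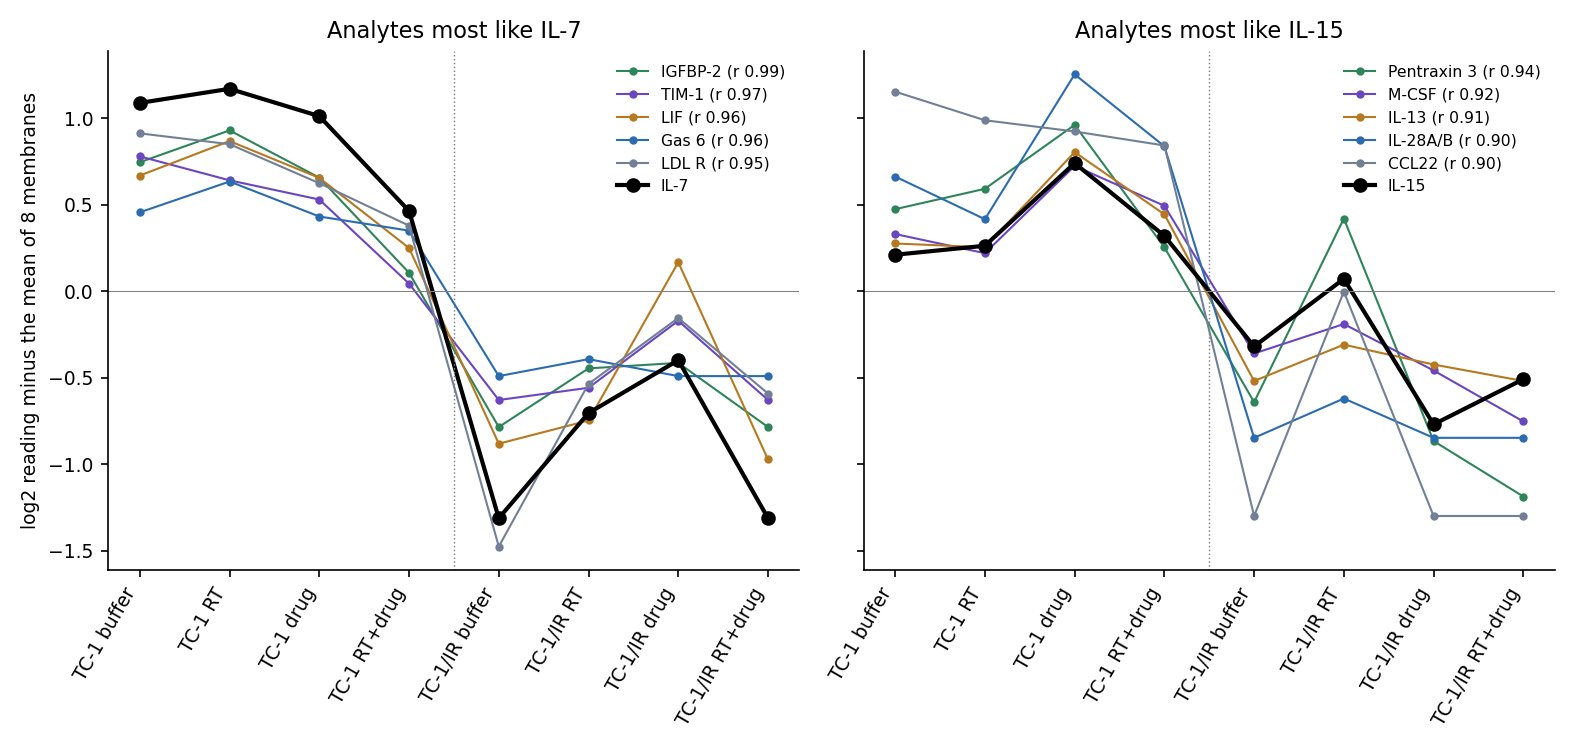
Log2 readings set to the floor where below it, minus each analyte's mean over the 8 membranes (y axis), for IL-7 and IL-15 in black and the 5 analytes most like each. The dotted line parts the TC-1 from the TC-1/IR membranes. IL-7 and its nearest analytes drop from the first 4 membranes to the last 4. IL-15 peaks on the TC-1 membrane of the drug together with pentraxin 3, M-CSF, IL-13 and IL-28A/B, while CCL22 peaks with buffer. The membrane of the drug also had the highest summed signal in TC-1.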

How the data were processed

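Spot intensities of a chemiluminescent antibody array (Proteome Profiler Mouse XL Cytokine Array, per the labels' protocols) were used as deposited, on a linear scale, with 222 spots a membrane. No source used here states the image analysis or how background was removed. The table of the whole series held the same values (0 differed). Spots of an analyte were averaged, values under 2.49 set to it, and log2 taken. Limma 3.58.1 in R 4.3.3 was fitted to 75 analytes, those exceeding the floor on 4 or more of the 8 membranes. The additive terms were line, RT and drug (4 residual degrees of freedom). Further fits added line by drug or RT by drug (3 each). With 1 membrane per group, the terms left out serve as the error, and p-values measure spread between these membranes only. An adjusted p (Benjamini-Hochberg over all analytes tested) under 0.05 made a call. SEs of spots cover technical error only, and "at least" refers to the mean of the spots against the floor. The fits were also run on simulated log2 values with independent normal noise, the same spread for all analytes and no floor. That run cannot speak to readings set to the floor or to shifts of whole membranes.

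The members, lists and tests were chosen with earlier results of these data known. Named analytes are the 3 members, the 5 most like IL-7 and IL-15 by Pearson's r, and called members of the lists (common gamma chain cytokines, T and NK cell products, chemokines attracting these cells, cytokines of antigen-presenting and stromal cells). Markers of lymphocytes, monocytes, neutrophils and endothelium and plasma proteins of liver were named as lists beside them. MMP-9 (for its spots without signal) and IL-10 were named after their values were seen. The alternatives were 2 scalings, floors of 0.5% and 2%, log2(reading + 1), no filter, an intensity trend, single spots, treatment as a block, a threshold of 2-fold and each membrane left out. No protein or promoter sequence was used.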

Additional observations from a re-analysis of the deposited data

Results flagged for a closer look

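The IL-15 reading was above that without the drug in both TC-1 pairs and below it in both TC-1/IR pairs (16.5 against 11.4, 12.3 against 11.9, 5.80 against 7.93 and 6.95 against 10.4). The TC-1 pair with RT differed by 1.04-fold with overlapping spots, and without the TC-1 membrane of the drug the effect within TC-1 was -0.034. The difference between the effects was -0.81 in log2 units (SE 0.47, adjusted p = 0.860 by limma), which did not pass the test. After centring it was -0.54 (SE 0.54, limma adjusted p = 0.823), and the TC-1/IR pair with RT then pointed the other way.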

How the results depend on the processing

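IL-7 was called lower in TC-1/IR under all 10 alternatives fitted, from -2.21 to -1.25. The -1.25 came with a floor of 2%, where all IL-7 readings of TC-1/IR were set to the floor. Size and spread there follow from the floor, so that call adds no support. IL-7 was also called lower in all 8 fits that left out a membrane, from -2.11 to -1.60. It was called at -1.49 in a fit chosen after seeing the data that left out TC-1/IR buffer and RT with the drug. The IL-15 line difference was called with the second spot alone (-0.86, limma adjusted p = 0.0358) and in the fit blocked on treatment (0.0429). It was not called with an intensity trend, floors of 0.5% or 2%, or no filter (-0.77 each, limma adjusted p = 0.0567 to 0.0944), nor with the first spot alone (-0.71), log2(reading + 1) (-0.69), centring (-0.31), scaling to the sum (-0.51) or the same 6 membranes (-0.73). Leaving out 1 membrane gave -0.95 to -0.54.

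Differences that were not called changed sign. For the drug and IL-7 they were 0.034 with a floor of 0.5%, 0.13 after centring and 0.10 with log2(reading + 1), and without 1 membrane -0.39 to 0.037. For the drug and IL-15 they were 0.11 after centring, 0.023 with the second spot, and -0.33 to 0.070 without 1 membrane. For IL-7 the drug within TC-1/IR gave -0.38 to 0.69 without 1 membrane, and for IL-15 the drug within TC-1 gave -0.034 to 0.62. RT gave 0.049 for IL-7 with log2(reading + 1), -0.044 for IL-15 with the first spot, and without 1 membrane -0.46 to 0.055 and -0.11 to 0.29. The RT by drug term of IL-15 was 0.78 after centring, 0.86 after scaling to the sum, 0.10 with the second spot, and -0.80 to 0.20 without 1 membrane.

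For single pairs of IL-7, the drug against buffer in TC-1/IR (0.91) was 1.91 with a floor of 0.5%, 1.83 with log2(reading + 1) and 0.59 scaled to the sum. Both treatments against RT in TC-1/IR (-0.61) was -0.99 with a floor of 0.5%, -0.0004 scaled to the sum and 0.22 after centring, both from a reading that was under the floor before scaling. In TC-1 the drug against buffer was -0.34 scaled to the sum, and both against RT -0.39 after centring. With a floor of 2% all IL-7 readings of TC-1/IR were below it, so pairs within TC-1/IR gave no value. Of the 75 analytes 30 were called lower for line, against 9 of 39 with a floor of 2% and 7 to 37 without 1 membrane (7 without TC-1 RT, 9 without TC-1 drug, 15 and 12 without both treatments in TC-1 and TC-1/IR), and 15 with the 6 membranes. The 1 higher call became 5 after centring and 3 after scaling to the sum or blocked on treatment, and 0 to 2 without 1 membrane. The 1 higher call for RT was absent after scaling to the sum, with a floor of 0.5%, with log2(reading + 1), with a trend and without any 1 membrane. The cause of these shifts was not tested. No paired analysis was possible because no replicate numbers link animals across groups; the block on treatment only matched membranes of the lines by treatment. Readings near the floor limit what IL-2, and IL-7 in TC-1/IR, can show.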
